A study of Rattus norvegicus with 18 samples.

Results

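The genes described here are 9 genes that respond to interferons, the secreted proteins by which cells signal viral infection to each other and to themselves. They are Stat2, Irf1, Irf7, Usp18, Isg15, Ifi27l2b, Mx1, Mx2 and Psmb9, out of 14218 genes that the array of this series measures with a probe set of 1 gene symbol. The 9 genes were found by symbol through 11 probe sets, and where a gene had several, the brightest by its mean over all 18 arrays was used. They were chosen with their treated and vehicle values already known, so their values are given as a description, with the standard error of each difference but with no test. The level of a probe set is on the log2 scale throughout, so that a difference of 1 is a doubling.

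The cells were NRK-52E, an established line of rat kidney epithelium that the labels place in the proximal tubule and in the Osborne-Mendel strain. Confluent cultures received 1.1 µM chlorothalonil, a chloronitrile fungicide, for 6, 24 or 72 h in medium with 0.1% DMSO. The concentration was the one that inhibited by 10% at 72 h, per the labels' protocols. The control cultures received 0.1% DMSO alone for the same times, and each of the 6 groups had 3 arrays, labelled as biological replicates, from 3 studies per time.

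Interferons bind receptors that switch on JAK kinases, which in turn phosphorylate STAT proteins. STAT2 works with IRF9 in a complex that binds interferon-stimulated response elements, and gamma-activated sites are the elements that serve the response to interferon gamma. Target genes include antiviral effectors, brakes on the pathway and parts of the machinery that cuts and loads peptides for presentation on MHC class I molecules. Many of them are also expressed at a low level without added interferon.

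The members did not move as a block. Usp18, Ifi27l2b and Isg15 were higher in chlorothalonil cells than in DMSO cells at 6, 24 and 72 h, and Irf1 was lower at each time. Stat2 was lower in chlorothalonil cells at 6 and 24 h, and at 72 h its 2 probe sets disagreed, at 0.57 on the brighter and -1.05 on the other. Psmb9 was lower at 24 h and higher at 72 h, while Irf7 was lower at 6 h and higher at 24 and 72 h. The 72 h directions of Stat2 (brighter probe set), Irf7 and Psmb9, and the 6 h direction of Isg15, turn under another scaling. In it, arrays are scaled to their spiked poly-A controls in place of the deposited scale. In DMSO cells alone, 5 of the 8 members that could be measured were higher at 24 h than at 6 h by more than 1 on the log2 scale, beside 11.3% of all genes. Mx2, among these 5, was at background at 6 h.

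The array values carry some limits. The deposited values were GCRMA log2 values, and replicate arrays correlated at r = 0.992 to 0.998 over all genes tested. A level of 4 or less was taken as background, and a gene was tested if at least 3 of the 18 arrays were above it, which left 9149 genes. Of the 13 tubule and epithelial markers on the array, 10 were at or below 4 on all 18 arrays, among them Lrp2, Cubn, Slc34a1 and Krt18. Krt8, a keratin of simple epithelia, averaged 14.3 ± 0.0441 at 6 h in chlorothalonil cells and 14.2 ± 0.111 in DMSO cells (SD, n = 3 each). Ggt1, a brush-border enzyme, averaged 9.06 ± 0.166 at 6 h, 8.58 ± 0.219 at 24 h and 5.64 ± 0.136 at 72 h in chlorothalonil cells, and 8.65 ± 0.0184, 6.70 ± 0.15 and 3.42 ± 0.0631 in DMSO cells at the same times (SD, n = 3 each). Aqp1, a water channel, had 2.27, 3.4 and 2.12 in chlorothalonil arrays at 72 h and 6.95, 7.22 and 6.95 in DMSO arrays, and was at background in the other groups. Most markers of the labelled tubule segment were thus at background, while Krt8 and Ggt1 were above it in most groups and Aqp1 in 1. Of 13 leukocyte markers, 9 were at or below 4 on all 18 arrays, Ptprc, Cd4, Cd8a, Itgam and Csf1r included.

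The promoters of the transcription factors Irf1 and Irf7, and of the neighbouring pair Tap1 and Psmb9, are printed because all of them are textbook targets of interferon and their members differed in course here. Each is the 250 bases upstream of the gene's start in RefSeq's rat assembly GRCr8, and 5 of the 9 members have an entry there (Mx1, Stat2, Irf1, Irf7 and Psmb9). The Irf1 window is chr10:38417685-38417934 on the plus strand. That of Irf7 is chr1:205800024-205800273 on the minus strand. The Tap1 window, chr20:4668544-4668793 on the minus strand, overlaps the Psmb9 window, chr20:4668750-4668999 on the plus strand, because both genes start 457 bases apart and point away from each other. Capitals mark a match, on either strand, to 2 copies of GAAA with any 2 bases between them, the core of the interferon-stimulated response element, or to TTCNNNGAA, the core of the gamma-activated site.
Irf1: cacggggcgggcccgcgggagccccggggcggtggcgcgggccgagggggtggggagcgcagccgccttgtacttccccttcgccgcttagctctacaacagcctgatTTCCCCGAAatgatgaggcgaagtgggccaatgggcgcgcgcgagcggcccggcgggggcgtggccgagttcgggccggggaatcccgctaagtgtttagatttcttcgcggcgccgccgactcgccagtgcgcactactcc
Irf7: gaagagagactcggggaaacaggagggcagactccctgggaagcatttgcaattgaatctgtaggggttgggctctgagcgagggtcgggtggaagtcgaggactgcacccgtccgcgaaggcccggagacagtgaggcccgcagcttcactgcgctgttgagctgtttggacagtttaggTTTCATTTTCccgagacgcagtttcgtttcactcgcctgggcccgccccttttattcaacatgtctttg
Tap1: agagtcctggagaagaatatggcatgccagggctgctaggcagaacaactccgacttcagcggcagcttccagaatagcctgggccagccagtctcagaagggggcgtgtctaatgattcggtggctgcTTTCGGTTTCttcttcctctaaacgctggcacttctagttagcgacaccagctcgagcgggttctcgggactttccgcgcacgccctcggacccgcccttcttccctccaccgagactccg
Psmb9: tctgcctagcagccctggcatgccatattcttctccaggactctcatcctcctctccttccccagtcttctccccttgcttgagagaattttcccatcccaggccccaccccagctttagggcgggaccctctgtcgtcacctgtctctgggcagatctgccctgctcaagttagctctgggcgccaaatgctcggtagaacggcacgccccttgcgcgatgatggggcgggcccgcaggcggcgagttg

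Irf1 holds 1 gamma-activated type match, TTCCCCGAA, from 142 to 134 bases upstream of its start. Irf7 holds 1 response-element type match, TTTCATTTTC, from 69 to 60 bases upstream, and Tap1 holds TTTCGGTTTC from 121 to 112 bases upstream. The Tap1 match lies at chr20:4668655-4668664, between the starts of the 2 genes and 336 bases from that of Psmb9, outside the Psmb9 window. The windows of Mx1, Stat2 and Psmb9 hold neither pattern. Of 33469 windows of the same length, 1140 (3.41%) hold the response-element pattern and 2566 (7.67%) the gamma-activated pattern, and matches of the 2 patterns did not overlap in these windows. A match of letters is no measurement of binding.

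Stat2 encodes the STAT protein particular to type I and type III interferon signalling. At 6 h Stat2 stood at 6.61, 6.56 and 6.71 in chlorothalonil arrays, against 7.63, 7.70 and 7.56 in DMSO arrays. The values at 24 h were 8.55, 8.88 and 8.85 in chlorothalonil arrays and 10.03, 9.90 and 9.77 in DMSO arrays. In both cases every treated array was below every vehicle array. By 72 h the order was turned, with 9.12, 9.14 and 9.08 in chlorothalonil arrays and 8.56, 8.47 and 8.61 in DMSO arrays. The log2 difference, chlorothalonil minus DMSO, was -1.0 at 6 h, -1.14 at 24 h and 0.57 at 72 h (SE 0.0876), the last of which is -0.10 under poly-A scaling. A second, dimmer Stat2 probe set went the same way at 6 and 24 h, with differences of -1.87 and -1.53, and the opposite way at 72 h, at -1.05. On that probe set the 72 h levels were 6.69, 6.56 and 6.83 in chlorothalonil arrays and 7.62, 7.86 and 7.74 in DMSO arrays, so the 2 probe sets disagree on whether Stat2 was higher or lower at 72 h.

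Irf1 is a transcription factor that interferon gamma induces early and that activates many interferon targets. Irf1 read 6.49, 6.6 and 6.86 in chlorothalonil arrays at 6 h, against 8.56, 8.82 and 8.35 in DMSO arrays. These were the lowest levels of Irf1 in any group, and the difference of -1.93 (SE 0.116) means 3.80-fold lower in treated cells. At 24 h Irf1 had 7.84, 7.97 and 8.11 in chlorothalonil arrays and 8.57, 8.48 and 8.33 in DMSO arrays. At 72 h it had 8.30, 8.28 and 8.23 in chlorothalonil arrays and 9.03, 9.16 and 9.11 in DMSO arrays. The groups did not overlap at any time, and the difference was -0.49 at 24 h and -0.83 at 72 h. In DMSO cells the 24 h and 6 h arrays overlapped, with a difference of -0.12.

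Irf7 is a transcription factor that interferon itself induces and that amplifies interferon gene transcription. At 6 h Irf7 stood at 6.42, 6.39 and 6.10 in chlorothalonil arrays, against 6.58, 6.57 and 6.62 in DMSO arrays. At 24 h the levels were 8.73, 9.08 and 9.15 in chlorothalonil arrays and 7.86, 7.82 and 7.77 in DMSO arrays. The treated arrays were thus all below the vehicle arrays at 6 h, by 0.29, and all above them at 24 h, by 1.17 (SE 0.11). At 72 h Irf7 had 7.77, 8.05 and 7.88 in chlorothalonil arrays and 7.31, 7.32 and 7.53 in DMSO arrays, a difference of 0.51 that is -0.16 under poly-A scaling. The treated 72 h arrays overlapped the DMSO arrays of 24 h, whereas the treated 24 h arrays were above those of every other group.

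Usp18 removes ISG15 from proteins and, by binding the type I receptor, is a brake on interferon signalling. At 6 h Usp18 read 8.35, 8.09 and 7.92 in chlorothalonil arrays, against 6.24, 6.58 and 5.97 in DMSO arrays. At 24 h it read 9.21, 9.86 and 9.77 in chlorothalonil arrays and 6.72, 6.64 and 6.69 in DMSO arrays. At 72 h it read 7.87, 8.32 and 8.44 in chlorothalonil arrays and 5.00, 4.64 and 4.92 in DMSO arrays. The lowest treated array of any time was above the highest vehicle array of any time. Usp18 was 3.62-fold higher at 6 h, 7.62-fold higher at 24 h and 10.2-fold higher at 72 h in chlorothalonil cells, which are log2 differences of 1.86, 2.93 and 3.36 (SE 0.192). The treated level itself was highest at 24 h, and the 72 h arrays of treated cells overlapped those of 6 h. The vehicle level at 72 h was 1.83 below that at 24 h.

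Isg15 is the ubiquitin-like modifier that Usp18 removes. At 6 h Isg15 had levels of 5.94, 5.70 and 5.69 in chlorothalonil arrays, against 5.26, 4.88 and 5.41 in DMSO arrays. At 24 h the levels were 8.38, 8.79 and 8.91 in chlorothalonil arrays and 6.69, 7.05 and 6.74 in DMSO arrays. At 72 h they were 8.14, 8.50 and 8.35 in chlorothalonil arrays and 6.00, 6.56 and 6.24 in DMSO arrays. Treated arrays were above vehicle arrays at each time, by 0.59, 1.86 and 2.07 (SE 0.175). The 6 h difference of Isg15 was -0.02 under poly-A scaling. Within the treated series the arrays of 24 and 72 h overlapped.

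Ifi27l2b belongs to the ISG12 family of small interferon-induced membrane proteins. Ifi27l2b stood at 11.08, 10.89 and 10.78 in chlorothalonil arrays at 6 h, against 9.99, 10.24 and 10.19 in DMSO arrays. At 24 h it stood at 12.38, 12.22 and 12.14 in chlorothalonil arrays and at 7.39, 7.62 and 7.13 in DMSO arrays. At 72 h it stood at 12.53, 12.60 and 12.66 in chlorothalonil arrays and at 4.57, 5.27 and 5.24 in DMSO arrays. The groups drew apart from both sides, and no neighbouring groups in the order of levels overlapped. Ifi27l2b was 1.72-fold higher at 6 h, 29.2-fold higher at 24 h and 190.2-fold higher at 72 h in chlorothalonil cells, with log2 differences of 0.78, 4.87 and 7.57 (SE 0.162). In chlorothalonil cells it was higher at 24 h than at 6 h by 1.33 and higher at 72 h than at 24 h by 0.35, while in DMSO cells it was lower by 2.76 and 2.35 over these intervals. In both intervals the step in vehicle cells was the larger.

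Ifi27, a gene of the same family, lies next to Ifi27l2b in RefSeq, and it was tested as a list gene. It was named here after its values were seen. It averaged 12.2 ± 0.167 at 72 h in chlorothalonil cells and 10.6 ± 0.037 in DMSO cells (SD, n = 3 each), a rise of 1.58 ± 0.0927 (SE, limma adjusted p = 1.93e-09). In DMSO cells Ifi27 was 0.61 higher at 24 h than at 6 h (adjusted p = 2.63e-05 by limma), the opposite direction to that of Ifi27l2b. Whether probes of one of these genes also bind the other's transcripts was not tested.

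Mx1 and Mx2 encode dynamin-like GTPases that block viruses, and RefSeq places them on either side of Fam3b, with Mx3 as another name of Mx2. The Mx1 probe set did not exceed 4 on any of the 18 arrays, so it shows no level or change here. Mx2 was at background in all 6 arrays of 6 h, at 3.14, 3.48 and 2.77 in chlorothalonil arrays and 3.10, 3.10 and 3.09 in DMSO arrays. At 24 h Mx2 had 7.33, 8.18 and 8.14 in chlorothalonil arrays, against 4.56, 4.84 and 4.68 in DMSO arrays. At 72 h it had 4.92, 5.86 and 6.04 in chlorothalonil arrays and 4.10, 3.68 and 4.12 in DMSO arrays. Mx2 was 9.14-fold higher at 24 h and 3.12-fold higher at 72 h in chlorothalonil cells, with log2 differences of 3.19 and 1.64 (SE 0.271). A second Mx2 probe set gave 1.97 and 1.27. Against the 6 h background, the 24 h level was at least 14.8-fold higher in chlorothalonil cells and at least 1.61-fold higher in DMSO cells.

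Psmb9 is the interferon-inducible catalytic subunit that replaces Psmb6 in the immunoproteasome. At 6 h Psmb9 had 7.70, 7.84 and 7.72 in chlorothalonil arrays and 8.04, 7.79 and 7.88 in DMSO arrays, which overlapped. At 24 h it had 8.47, 8.49 and 8.89 in chlorothalonil arrays, against 9.93, 9.93 and 9.77 in DMSO arrays. At 72 h it had 10.56, 10.64 and 10.74 in chlorothalonil arrays and 10.04, 10.12 and 10.22 in DMSO arrays. The difference was -0.16, -1.26 and 0.52 over the 3 times (SE 0.104), and the 72 h value is -0.15 under poly-A scaling. Psmb9 was higher at 24 h than at 6 h by 0.86 in chlorothalonil cells and 1.97 in DMSO cells, and higher at 72 h than at 24 h by 2.03 in chlorothalonil cells and 0.25 in DMSO cells. The larger step thus came in the first interval in vehicle cells and in the second in treated cells.

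**Figure D1:**
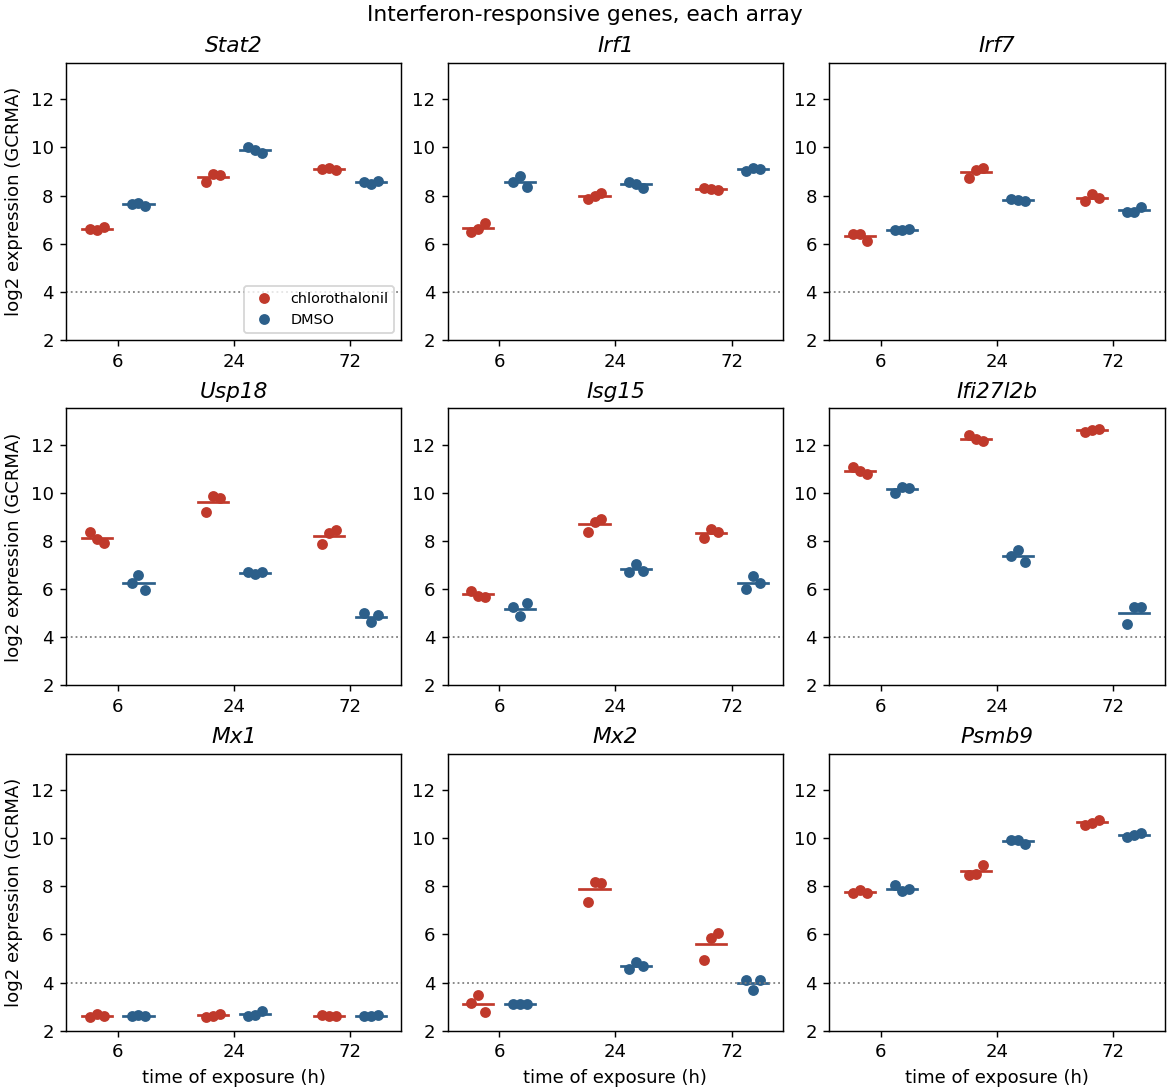
Level of each member on every array (log2, GCRMA), with chlorothalonil groups left of their DMSO groups at 6, 24 and 72 h; points are arrays and bars are group means of 3 arrays. Ifi27l2b ended at 12.6 in chlorothalonil cells and 5.03 in DMSO cells at 72 h, while Mx1 stayed below the background line at 4 on all 18 arrays.

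In the fit over all 9149 genes, 3 of the 8 tested members were past the threshold as higher and 3 as lower in chlorothalonil cells at 6 h, where 59.6% of all genes were past it, 27.8% as higher and 31.8% as lower. At 24 h the counts were 5 higher and 3 lower, beside 70.1% of all genes (39.1% higher, 31.1% lower). At 72 h they were 7 higher and 1 lower, beside 64.3% (37.2% higher, 27% lower). Groups did not overlap for 6 members at 6 h, against 66.7% of all genes, and for 8 members at 24 and at 72 h, against 73% and 70.5%. Because the members were chosen on these differences, nothing is read from the counts. Their median difference was -0.06 at 6 h, 1.52 at 24 h and 1.10 at 72 h, beside all-gene medians of -0.0097, 0.057 and 0.074. Poly-A scaling, which shifts all genes of an array alike, gave 24 h differences of 3.79 for Ifi27l2b, 2.12 for Mx2, 1.86 for Usp18, 0.79 for Isg15 and 0.10 for Irf7. It gave -1.56 for Irf1, -2.22 for Stat2 and -2.33 for Psmb9 at that time. These 24 h values include DMSO 24 h replicate 1, whose spiked controls averaged 8.97, beside 10.1 and 10.3 on the other DMSO arrays of that time. At 72 h it gave 6.90 for Ifi27l2b, 2.69 for Usp18, 1.40 for Isg15, 0.97 for Mx2 and -1.5 for Irf1, and at 6 h 1.24 for Usp18 and 0.16 for Ifi27l2b.

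**Figure D2:**
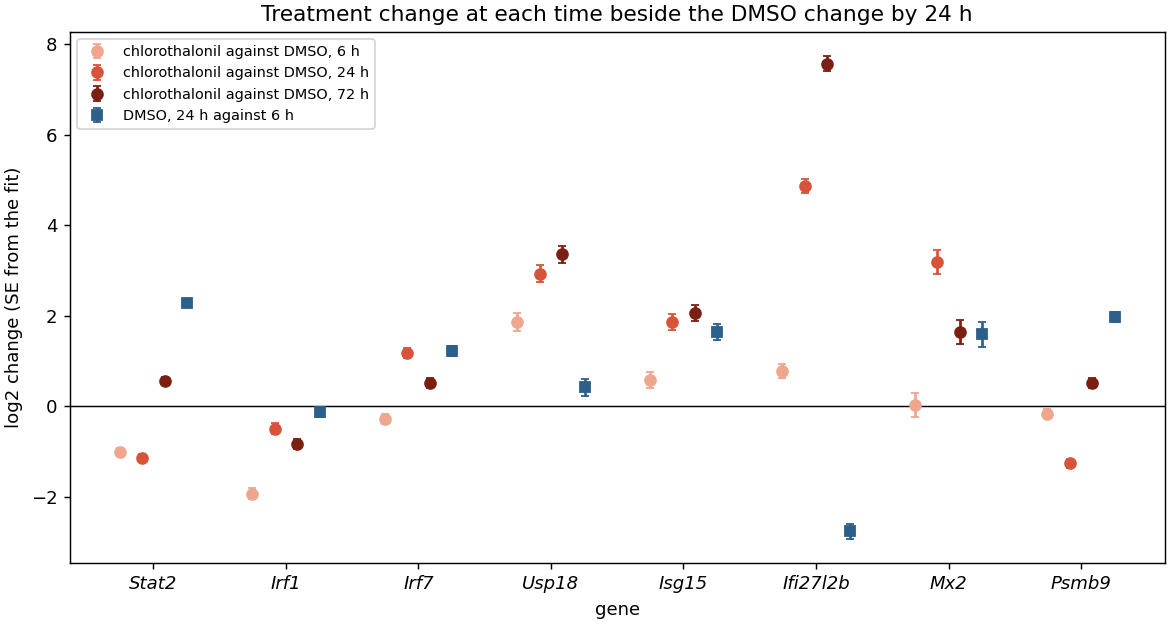
Log2 difference, chlorothalonil minus DMSO, of the 8 tested members at 6, 24 and 72 h, with the DMSO difference between 24 and 6 h as squares and error bars of 1 SE from the fit over 18 arrays. Irf1 lies below 0 at the 3 times, at -1.93, -0.49 and -0.83, and Ifi27l2b climbs to 7.57.

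The course of the treated cells between 6 and 24 h is set beside that of the vehicle cells, and the chlorothalonil and DMSO differences share no arrays. In chlorothalonil cells Mx2 was higher at 24 h than at 6 h by 4.75, Isg15 by 2.92, Irf7 by 2.68, Stat2 by 2.13, Usp18 by 1.5, Ifi27l2b by 1.33, Irf1 by 1.32 and Psmb9 by 0.86. All 8 tested members were thus higher at the later time in treated cells. In DMSO cells the same interval gave 1.59 for Mx2, 1.65 for Isg15, 1.22 for Irf7, 2.28 for Stat2, 0.42 for Usp18 and 1.97 for Psmb9. The vehicle difference was -2.76 for Ifi27l2b and -0.12 for Irf1. Mx2 was at background at 6 h in both treatments. Its rise is thus bounded as at least 14.8-fold in chlorothalonil cells and at least 1.61-fold in DMSO cells. Of the 5 members whose vehicle level was higher by at least 1, Stat2 and Psmb9 had the smaller difference in treated cells and Isg15, Mx2 and Irf7 the larger. Over all genes tested, 1036 (11.3%) had such a vehicle increase, and 940 of them (90.7%) had a smaller increase, none or a fall in treated cells. Of 1071 genes with a vehicle fall of at least 1, 1042 had a smaller fall, none or a rise in treated cells. Because these genes were picked by their vehicle change, nothing is read from these shares about the members. In the fit, 8 members were past the threshold as higher in chlorothalonil cells, beside 59.5% of all genes (34.6% higher, 24.9% lower). In DMSO cells 5 were past it as higher and 1 as lower, beside 72.9% (32.9% higher, 40% lower). Nothing is read from these counts either, because the members were chosen with their values known.

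The difference between the treatment effect at 24 h and that at 6 h was 4.09 for Ifi27l2b, 3.16 for Mx2, 1.46 for Irf7, 1.44 for Irf1, 1.27 for Isg15, 1.07 for Usp18, -0.14 for Stat2 and -1.10 for Psmb9. For Irf1 the positive value stands for a smaller deficit, since treated cells were below vehicle cells at both times. The value of Mx2 rests on 6 h levels at background in both treatments. In the fit 6 members were past the threshold upward and 1 downward, beside 63% of all genes (39.6% upward, 23.4% downward). Nothing is read from this count, since the members were chosen with these values known.

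**Figure D3:**
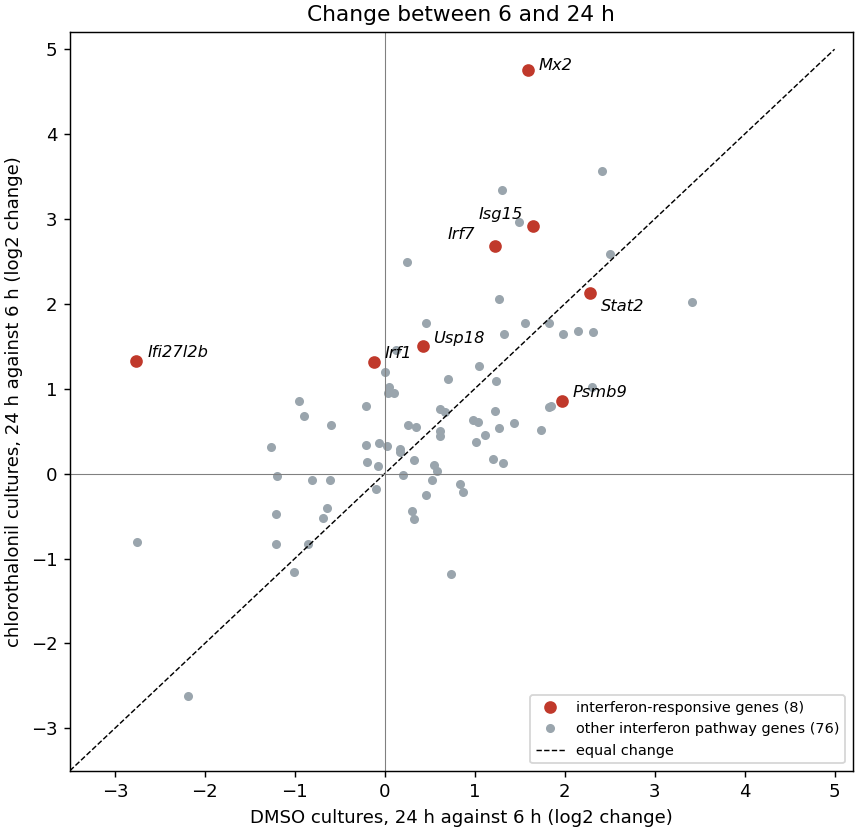
Log2 difference between 24 h and 6 h in chlorothalonil cells against that in DMSO cells, for the 8 tested members and the 76 other pathway genes, with a line of equal change. Stat2 (2.13 in chlorothalonil, 2.28 in DMSO) lies close to the line, Psmb9 below it, and Mx2 (4.75 and 1.59) above it.

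Between 24 and 72 h, Mx2 was lower at 72 h by 2.28 in treated cells, Usp18 by 1.41 and Irf7 by 1.08, while Isg15 differed by -0.36 and Ifi27l2b by 0.35. The vehicle level was lower at 72 h for 6 members and higher for Irf1, by 0.64, and Psmb9, by 0.25. Stat2 is among the 6 on its brighter probe set, at -1.36, while its other probe set gave -0.12. In chlorothalonil cells the 2 Stat2 probe sets gave 0.35 and 0.36 over this interval. In the fit 3 members were past the threshold as higher and 3 as lower in chlorothalonil cells, beside 72.9% of all genes (39.5% higher, 33.3% lower). In DMSO cells 2 were past it as higher and 6 as lower, beside 60.7% (36.3% higher, 24.3% lower). These counts too are descriptions from which nothing is read. The treated levels of Mx2, Usp18 and Irf7 were thus highest at 24 h, and the levels of Ifi27l2b, Stat2, Irf1 and Psmb9 in treated cells were highest at 72 h.

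The other genes of the pathway were taken from 8 lists of 155 genes, of which 115 are on the array and 76 were tested. At 6 h, 29 rose and 25 fell in chlorothalonil cells against DMSO cells (59.6% of all genes were called), with a median of 0.10 beside -0.0097 over all genes. At 24 h, 25 rose and 22 fell (70.1% of all genes), with a median of -0.08 beside 0.057. At 72 h, 31 rose and 22 fell (64.3% of all genes), with a median of 0.09 beside 0.074. In DMSO cells at 24 h against 6 h, 45 rose and 16 fell (72.9% of all genes), with a median of 0.49 beside -0.054. In chlorothalonil cells over the same interval, 46 rose and 10 fell (59.5% of all genes), with a median of 0.53 beside 0.05. The list medians thus lay near 0 between treated and vehicle cells and were shifted upward from 6 to 24 h in both. Scaled to the spiked poly-A controls, the treated against vehicle split became 5 higher and 33 lower at 6 h, 4 and 54 at 24 h, and 9 and 32 at 72 h, because that scaling moves the median of all genes to -0.62, -1.02 and -0.60.

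**Figure D4:**
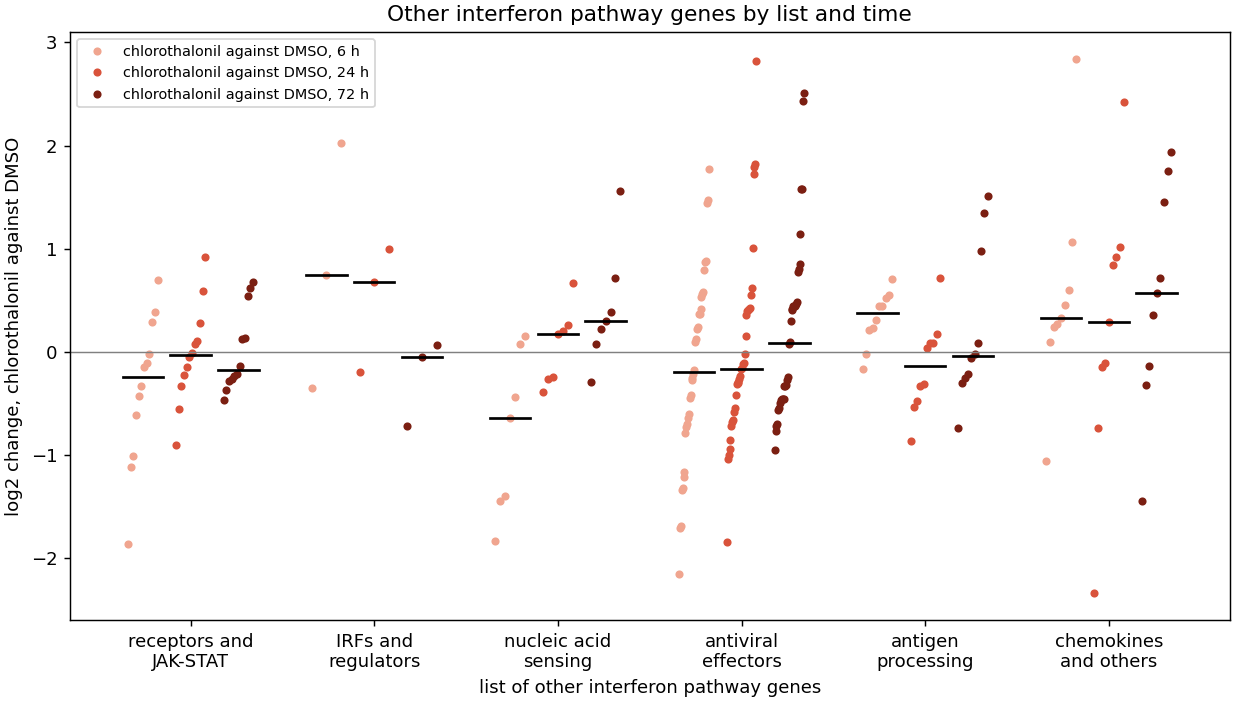
Log2 difference, chlorothalonil minus DMSO, of every tested gene in 6 of the pathway lists at 6, 24 and 72 h; each point is a gene and each bar the median of its list. Points of most lists lie on both sides of 0, and the median of the nucleic acid sensors is -0.64 at 6 h and 0.30 at 72 h.

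Ligands and receptors came first in the lists. The probe sets of Ifnb1, Ifng and Ifnk did not exceed 4 on any array, and Ifnb1 averaged 2.12 ± 0.0351 at 24 h in chlorothalonil cells and 2.15 ± 0.0417 in DMSO cells (SD, n = 3 each). The other interferon ligands listed have no probe set of 1 gene symbol on the array, so their transcripts were not measured. Of 12 receptor and JAK-STAT genes tested, 2 rose and 6 fell at 6 h, beside 27.8% and 31.8% of all genes. At 24 h, 3 rose and 3 fell (39.1% and 31.1%), and at 72 h, 3 rose and 3 fell (37.2% and 27%). Ifnlr1, a receptor chain of interferon lambda, fell by 1.86 ± 0.134 at 6 h (SE, limma adjusted p = 2.6e-08). Irf9, the DNA-binding partner of STAT2, stood at 6.96, 7.02 and 6.54 in chlorothalonil arrays and 7.69, 8.0 and 7.85 in DMSO arrays at 6 h. Irf9 fell by 1.01 ± 0.136 (SE, adjusted p = 1.38e-05 by limma) and differed by -0.22 at 24 h and -0.23 at 72 h, neither past the threshold (adjusted p = 0.163 and 0.144). In DMSO cells Irf9 rose by 1.27 at 24 h against 6 h (adjusted p = 5.92e-07, limma), beside the 2.28 of Stat2. Ifnar2, a chain of the type I receptor, was called higher by 0.39, 0.28 and 0.62 at the 3 times, and its sign turned at each of them under poly-A scaling, to -0.22, -0.79 and -0.05. Ifnar1, the other chain, had an adjusted p of 0.0432 at 6 h (difference -0.33, limma), which did not hold in the quantile normalization (0.18).

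Among nucleic acid sensors and their adaptors, 1 of 7 genes rose and 5 fell at 6 h, beside 27.8% and 31.8% of all genes. At 24 h, 2 rose and 0 fell, beside 39.1% and 31.1% (limma, also 0 falling at an unadjusted p under 0.05). The 5 that fell include Ticam1, the adaptor of TLR3, by 1.83 ± 0.294 (SE, adjusted p = 7.38e-05), and Traf3, by 1.40 ± 0.123 (adjusted p = 1.97e-07, limma). Ifih1, the sensor of long double-stranded RNA, had 3.09, 2.87 and 3.15 in chlorothalonil arrays at 6 h, all at background, and 4.62, 4.13 and 4.72 in DMSO arrays, at least 1.40-fold lower with treatment. For 5 of the 7 sensors the treatment effect rose between 6 and 24 h, as it did for 39.6% of all genes, Ticam1 by 2.04 ± 0.416 (SE, limma adjusted p = 0.000593), and it fell for 0, also at an unadjusted p under 0.05.

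Of 34 antiviral effectors tested, 11 rose and 12 fell at 6 h, beside 27.8% and 31.8% of all genes. At 24 h, 11 rose and 13 fell (39.1% and 31.1%), and at 72 h, 15 rose and 12 fell (37.2% and 27%). The list has 48 genes on the array, so some were not tested. The probe sets of Ifit1, Ifit3, Rsad2, Oasl, Oas1b, Ifi44l and Gbp4 did not exceed 4 on any array. That of Oas1a did on 2 chlorothalonil arrays of 24 h, and that of Ifit2 on 2 of 72 h. Isg20, a ribonuclease, was higher in chlorothalonil than in DMSO cells at each time, by 1.77, 1.79 and 2.51 (adjusted p = 5.74e-07, 2.43e-07 and 1.11e-08 by limma). Isg20 stood at 8.90, 9.23 and 9.45 in chlorothalonil arrays at 72 h, against 6.80, 6.55 and 6.69 in DMSO arrays. Slfn4, a Schlafen protein, was higher in chlorothalonil than in DMSO cells by 1.44, 1.82 and 1.58 at the 3 times, and Lgals9, galectin 9, by 0.88, 2.82 and 2.43. Within chlorothalonil cells the levels of Isg20, Slfn4 and Lgals9 were lower at 24 h than at 6 h, with changes of -0.83, -0.83 and -0.81. In DMSO cells Slfn4 and Lgals9 changed by -1.21 and -2.75 over that interval. Bst2, the tether that holds budding virions, rose by 1.47 ± 0.165 at 6 h (SE, adjusted p = 2.29e-06, limma).

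In the other direction, the interferon-inducible GTPases Igtp and Irgm fell at 6 h. Igtp had 3.38, 3.81 and 3.89 in chlorothalonil arrays, all at background, and 5.66, 5.80 and 6.07 in DMSO arrays, at least 3.59-fold lower (adjusted p = 1.09e-07, limma). Irgm fell by 1.69 at 6 h (adjusted p = 8.97e-08), and its treatment effect rose by 2.24 ± 0.194 between 6 and 24 h (SE, adjusted p = 2.15e-07 by limma). Gbp2, a guanylate-binding protein, had 5.69, 6.0 and 6.73 in chlorothalonil arrays at 24 h, against 8.15, 7.77 and 8.01 in DMSO arrays. Gbp2 was lower in chlorothalonil than in DMSO cells by 1.84 ± 0.222 at 24 h and by 0.77 at 72 h (limma adjusted p = 2.7e-06 and 0.00709). Within chlorothalonil cells Gbp2 was higher at 24 h than at 6 h, by 2.02. It rose by 3.41 in DMSO cells at 24 h against 6 h, the largest rise of any list gene in that comparison. Parp14 rose by 2.50, Parp10 by 2.42 and Trim34 by 2.32 in the same vehicle comparison, while Lgals9 fell by 2.75 and Traf3 by 1.27.

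Psmb9 shares its pathway with the genes of antigen processing. Of 10 tested with limma, 6 rose and 0 fell at 6 h, beside 27.8% and 31.8% of all genes. At 24 h, 1 rose and 4 fell (39.1% and 31.1%), and at 72 h, 3 rose and 3 fell (37.2% and 27%). In DMSO cells 8 rose and 1 fell at 24 h against 6 h (32.9% and 40% of all genes). The treatment effect fell for 6 of the 10 between 6 and 24 h (23.4% of all genes) and rose for 0 (39.6%). Both counts of 0 are also 0 at an unadjusted p under 0.05. Psmb8, the immunoproteasome partner of Psmb9, was at background at 6 and 24 h in both treatments. At 72 h Psmb8 had 7.51, 7.66 and 7.52 in chlorothalonil arrays and 6.15, 6.08 and 6.43 in DMSO arrays, a rise of 1.35 ± 0.244 (SE, limma adjusted p = 0.000195), a call lost under poly-A scaling (adjusted p = 0.0823). Tap1, the peptide transporter chain that starts beside Psmb9, had 7.82, 8.12 and 7.92 in chlorothalonil arrays and 6.30, 6.52 and 6.52 in DMSO arrays at 72 h. It rose by 1.51 ± 0.152 (SE, adjusted p = 5.8e-07, limma) and was not past the threshold at 6 h (-0.17, adjusted p = 0.357) or 24 h (0.17, adjusted p = 0.324). Tap2, its partner chain, rose by 0.71 at 6 h (adjusted p = 0.000545, and 0.816 under poly-A scaling) and in DMSO cells by 1.82 at 24 h against 6 h (adjusted p = 1.86e-08, both limma), beside the 1.97 of Psmb9. Tap1 and Tap2 were named after their values were seen. Psmb10, the third inducible subunit, rose by 0.55 and 0.72 at 6 and 24 h, signs that turned to -0.07 and -0.35 under poly-A scaling. At 72 h Psmb10 averaged 7.784 ± 0.277 in chlorothalonil cells and 8.035 ± 0.154 in DMSO cells (SD, n = 3 each), and the arrays overlapped.

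Of 9 chemokines and other induced genes, 6 rose and 1 fell at 6 h, beside 27.8% and 31.8% of all genes. At 24 h, 5 rose and 2 fell (39.1% and 31.1%), and at 72 h, 6 rose and 2 fell (37.2% and 27%). Cxcl10, a chemokine that attracts T cells, had 7.05, 7.27 and 6.97 in chlorothalonil arrays at 6 h, against 4.52, 3.0 and 5.23 in DMSO arrays, a rise of 2.84 ± 0.59 (SE, adjusted p = 0.000712 by limma). At 24 h Cxcl10 had 5.75, 3.75 and 3.94 in chlorothalonil arrays, 1 of 3 above background, and 2.04, 2.05 and 2.09 in DMSO arrays. Without the first treated array both groups of Cxcl10 are at background at 24 h. Il15, a cytokine that sustains lymphocytes, was lower in chlorothalonil than in DMSO cells by 2.34 at 24 h and by 1.45 at 72 h (limma adjusted p = 7.28e-07 and 0.000128). Its level was higher at 72 h than at 24 h in both, by 2.02 in chlorothalonil cells and 1.13 in DMSO cells.

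Further genes that the naming rule picked fell into no one direction. At 24 h Plscr1, a scramblase with antiviral activity, was at least 2.44-fold higher in chlorothalonil cells (limma adjusted p = 2.09e-06, and 0.0666 under poly-A scaling). The ADP-ribosylation partners Parp9 and Dtx3l were lower than in DMSO cells at that time, by 0.94 and 1.0, and the MHC class II regulator Rfx5 by 0.86. Within chlorothalonil cells Parp9 was higher at 24 h than at 6 h, by 1.78. At 72 h Gch1, the first enzyme of tetrahydrobiopterin synthesis, was at least 2.47-fold higher in chlorothalonil than in DMSO cells. Casp4, an inflammatory caspase, was higher by 1.75 and Dhx58, an RNA sensor, by 1.56. Lgals3bp, a secreted glycoprotein, was lower in chlorothalonil cells by 0.95, Erap1, a peptide trimmer, by 0.74, and Ifitm3, which blocks virus entry, by 0.70 at that time. Within chlorothalonil cells Lgals3bp and Ifitm3 were higher at 72 h than at 24 h, by 2.73 and 1.6. In DMSO cells at 24 h against 6 h, Il15 rose by 2.30, Dhx58 by 2.15, Ifi35 by 1.98 and Bst2 by 1.85.

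The smaller lists are given whole. Of 3 interferon regulatory factors and negative regulators tested, 2 rose and 1 fell at 6 h (27.8% and 31.8% of all genes). At 24 h, 2 rose and 0 fell (39.1% and 31.1%). At 72 h, 0 rose and 1, Irf3, fell by 0.72 (37.2% and 27%). Both counts of 0 are also 0 at an unadjusted p under 0.05 (limma). Socs3, an inhibitor of JAK signalling, had 4.90, 4.84 and 4.92 in chlorothalonil arrays at 6 h against 3.13, 2.69 and 2.74 in DMSO arrays, at least 1.85-fold higher (adjusted p = 8.98e-06, limma). Ube2l6, the conjugating enzyme for ISG15 and the gene of its list that was tested, rose by 0.47, 0.55 and 0.54 at the 3 times. Of the constitutive catalytic subunits of the proteasome, Psmb7 rose by 0.43, 1.11 and 1.15 and Psmb5 by 0.71 at 24 h and 0.32 at 72 h, and Psmb5 had 0.12 at 6 h. These 3 genes were named after their values were seen. Under poly-A scaling Ube2l6 turned at the 3 times, Psmb7 at 6 h and Psmb5 at 24 and 72 h, and Psmb7 was not past the threshold at 24 h (adjusted p = 0.925, limma) or 72 h (0.222).

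Of the leukocyte markers, Cd14, Itgax and Cd68 were above background on several arrays, and Cd3e on 1, at 4.09. Itgax had 8.25, 8.03 and 8.17 in chlorothalonil arrays at 72 h and 2.70, 2.80 and 2.68 in DMSO arrays. Cd68, a lysosomal glycoprotein, had 9.52, 9.61 and 9.23 in chlorothalonil arrays and 3.39, 4.32 and 4.02 in DMSO arrays at that time. Cd14, a receptor for bacterial lipopolysaccharide, had 11.76, 11.98 and 11.81 in chlorothalonil arrays at 24 h and 11.51, 11.48 and 11.44 in DMSO arrays, which did not overlap, and the groups overlapped at 6 and 72 h. The summed level of the 13 markers, dominated by Cd14, ranged over 11.77 to 11.85 in chlorothalonil arrays and 11.29 to 11.38 in DMSO arrays at 72 h, and at 24 h over 11.83 to 12.04 in chlorothalonil arrays and 11.48 to 11.54 in DMSO arrays. Their part in the members' differences was not tested. In such bulk RNA, fewer cells with a transcript and less of it per cell cannot be told apart.

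The profile of the members over the 18 arrays can be summarised by the mean of the 8, each centred on its own mean. The tested genes most like it by Pearson r were Atp6v0e1 (0.971), Pdhb (0.965), Sntg2 (0.965), Creg1 (0.964), Slpi (0.953), Abcb6 (0.950), Tmem167b (0.950) and Epdr1 (0.949), and none of them is in the pathway lists. Slpi, a secreted protease inhibitor, averaged 6.35 ± 0.581 at 24 h in chlorothalonil cells and 2.29 ± 0.0461, at background, in DMSO cells (SD, n = 3 each). Pdhb, a subunit of pyruvate dehydrogenase, averaged 12.55 ± 0.032 in chlorothalonil cells and 11.88 ± 0.0481 in DMSO cells at 24 h. The members themselves correlated with their mean, of which they are part, at 0.962 for Isg15, 0.927 for Mx2, 0.870 for Irf7, 0.745 for Usp18, 0.615 for Ifi27l2b, 0.551 for Stat2, 0.367 for Psmb9 and 0.002 for Irf1. These correlations are descriptions, since the arrays come as 6 groups of 3 that share time and treatment.

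Gene by gene, the nearest profile to Ifi27l2b was that of Ube2j1 (r = 0.991), an enzyme of endoplasmic reticulum-associated degradation, then Tnfrsf12a (0.981). Stat2 was nearest to Hagh (0.989) and Kif3c (0.984), Irf1 to Pex5 (0.977) and Rab11fip3 (0.976), and Psmb9 to Ephx1 (0.989) and Ift80 (0.989). Usp18 was nearest to Arfrp1 (0.971) and Plk2 (0.970), Isg15 to Creg1 (0.959) and Atxn10 (0.948), and Mx2 to Serf1 (0.975) and Hibch (0.958). For Irf7 the nearest were Hibch (0.957) and Mx2 (0.956), the 1 instance of a member among these nearest profiles.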

How the data were processed

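Total RNA from 18 cultures was labelled with biotin and hybridised to rat expression arrays, 1 sample per array. The authors deposited log2 values, and per the submitters' processing notes GCRMA was the tool. No source used here gives its version or its settings. The table holds 31099 probe sets, of which 20832 have 1 gene symbol in the platform annotation, 436 have several and 9831 none, and 20764 of the symbols were matched to current ones. A gene was represented by its brightest probe set. It was tested if above log2 4 on at least 3 arrays.

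Using limma 3.58.1 in R 4.3.3, 18 arrays in 6 groups were fitted in 1 model of group means, with two-sided moderated tests and Benjamini-Hochberg adjustment over 9149 genes at a threshold of 0.05. The labels call the arrays biological replicates from 3 studies per time and say no more of how the cultures were separated. P-values measure the spread between these arrays, whose number limits the precision. A gene at or below 4 in the 3 arrays of a group has a bound in place of a fold, its other group's mean against 4.

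Members and lists were chosen with earlier results of these data known, so members carry no test. For the same reason the counts and adjusted p-values of list genes describe the fit and are no independent support. The genes named from the lists are those called with groups that do not overlap, up to 8 in each direction per comparison, plus Irf9, Ifnar1, Ifnar2, Psmb8, Psmb10 and Ifnb1, and 1 further gene of that rule is not reported here. Ifi27, Tap1, Tap2, Ube2l6, Psmb5 and Psmb7 were named as neighbours or partners of members, after their values were seen. Alternatives covered scaling, filters, probe set choice, array weights, the replicate number as a block, the arrays fitted and each array left out. Promoter sequences are RefSeq's, assembly GRCr8.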

Additional observations from a re-analysis of the deposited data

Results flagged for a closer look

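The treated against vehicle difference of 3 members changed direction between times, with every treated array on 1 side of every vehicle array at the earlier time and on the other side at the later time. These differences between times were not tested, because the members were chosen on the same values. Stat2 was at 0.57 at 72 h, against -1.0 at 6 h and -1.14 at 24 h, on its brighter probe set. Irf7 was at 1.17 at 24 h and 0.51 at 72 h, against -0.29 at 6 h. Psmb9 was at 0.52 at 72 h, against -1.26 at 24 h. Under poly-A scaling the 72 h values of Stat2 and Psmb9 were -0.10 and -0.15, on the same side as their earlier values. Irf7 was then at -0.90 at 6 h, 0.10 at 24 h and -0.16 at 72 h. The 24 h value includes the DMSO array whose spiked controls were lowest, at 8.97.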

How the results depend on the processing

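The counts of list genes past the threshold stayed within 1.5 times of those reported under every alternative run except poly-A scaling. Under it the count was 23 in place of 56 in chlorothalonil cells at 24 h against 6 h, 32 in place of 49 in chlorothalonil cells at 72 h against 24 h, 13 in place of 45 in DMSO cells at 72 h against 24 h (7 higher and 6 lower, in place of 30 and 15), and 16 in place of 48 for the treatment effect at 24 h against 6 h (4 higher and 12 lower, in place of 24 and 24). The spiked controls averaged 10.5 to 11.2 on chlorothalonil arrays and 8.97 to 10.3 on DMSO arrays, so every treated array was above every vehicle array. The lowest was DMSO 24 h replicate 1. With that array left out as well, a choice made after seeing the data, the last count was 27, the split at 72 h against 24 h in DMSO cells was 28 higher and 4 lower, and the median of all genes moved to -0.59 at 24 h in place of -1.02. Leaving out each array in turn gave 52 to 56 calls at 6 h, 43 to 49 at 24 h, and 49 to 54 at 72 h. Over the intervals from 6 to 24 h and from 24 to 72 h it gave 52 to 60 and 48 to 52 in chlorothalonil cells, 58 to 62 and 40 to 46 in DMSO cells, and 44 to 49 for the effect at 24 h against 6 h.

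Under poly-A scaling, directions turned for Isg15 at 6 h (-0.02) and, at 72 h, for Stat2 (-0.10), Irf7 (-0.16) and Psmb9 (-0.15). The mean of the Stat2 probe sets gave -0.24 at 72 h. Among list genes, poly-A scaling turned Ifnar2 (-0.22 at 6 h, -0.79 at 24 h, -0.05 at 72 h), Psmb10 (-0.07 at 6 h, -0.35 at 24 h), and at 24 h Ifi27 (-0.45), Wars1 (-0.06), Trim26 (-0.06), Socs3 (-0.07), Psmb5 (-0.37, and -0.35 at 72 h) and Ube2l6 (-0.53, with -0.15 at 6 h and -0.13 at 72 h). Psmb7 turned at 6 h (-0.19). With DMSO 24 h replicate 1 left out, Ifnar2 was at -0.36, Ube2l6 at -0.21 and Ifi27 at -0.06 at 24 h, and the mean of the Ifnar2 probe sets gave -0.05 at 72 h. Ifnar1 at 6 h lost its call without any 1 of 9 arrays. For Cxcl10 at 24 h, the difference was 1.78 without chlorothalonil replicate 1. The cause of these changes was not tested. Of the members' leave-one-out values, 1146 moved by less than the replicate SD and 6 by more, none with a change of direction. Under the other alternatives 523 moved by less, 108 by more with no turn of a called direction and 9 turned, most of them under poly-A scaling.

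Same-numbered treated and vehicle arrays deviated from their group means with r of -0.041, 0.052 and -0.029 at 6 h, 0.125, -0.01 and 0.215 at 24 h, and 0.305, -0.044 and 0.075 at 72 h. Arrays of different number gave -0.038 to 0.081 at 6 h, -0.197 to 0.092 at 24 h and -0.224 to 0.213 at 72 h. With 3 arrays a group, these values cannot tell whether the numbers pair the arrays. With the replicate block the counts were 53, 46 and 54 at 6, 24 and 72 h. The block gave 58 between 6 and 24 h and 50 between 24 and 72 h in chlorothalonil cells, 60 and 44 in DMSO cells, and 46 for the change of the treatment effect.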
